A study of Mus musculus with 6 samples.

Results

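The mitochondrial protein import machinery was followed through 35 genes, picked by symbol from a list of known import components, out of 26214 genes listed in the deposited count files. All 35 passed the filter on low counts, among 14709 genes tested, and the lowest count of any of them in any library was 408. Gene expression had been profiled by RNA-seq in immortalized mouse brown preadipocytes that were differentiated in culture to day 7. They then received 100 nM rotenone, a blocker of complex I (NADH dehydrogenase) of the respiratory chain, or the solvent DMSO, for 16 h. Both groups had gone through the same differentiation, with insulin, triiodothyronine, methylisobutylxanthine, dexamethasone and indomethacin at first and with insulin and triiodothyronine later. The cell type field of the labels names the preadipocyte and the titles name the differentiated adipocyte. Whether the line is 1 clone is left unsaid in the labels.

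Each group was deposited as 3 libraries. The 3 rotenone files held the same count for every gene, less than sampling noise allows, and were counted as 1 sample, whereas the 3 DMSO libraries differed from one another. All comparisons are therefore of 3 DMSO libraries with 1 rotenone library, and the spread comes from DMSO alone. Library totals ran from 26085061 to 29194179 counts in DMSO, and the rotenone total was 21611589. At an adjusted p under 0.05 by edgeR's test, 27.6% of all genes tested rose and 28.5% fell. Of 7 general fat cell markers, 1 rose (Lpl, 0.53 on the log2 scale) and 4 fell, which were Lipe (-1.88), Pparg (-0.65), Adipoq (-0.43) and Plin1 (-0.34). Fabp4, another of them, was between 4857 and 5583 CPM (read counts scaled to TMM-adjusted library size) in DMSO and at 5306 CPM with rotenone, and did not pass. Of 7 tested brown fat markers, 3 rose and 2 fell. The rises were those of Elovl3 (0.60), Cox8b (0.30) and Cox7a1 (0.20), and the falls those of Prdm16 (-2.13) and Ucp1 (-1.86). With library size scaling 1 rose and 2 fell. With a coefficient of variation of 20% assumed 0 rose and 2 fell. Dio2 had between 0 and 7 counts in any library. Among markers of preadipocytes and fibroblasts 4 of 7 rose (Acta2, Thy1, Dlk1 and Col1a1) and 1 fell (Pdgfra, -1.11), while Cd34 and Ly6a did not pass. Their summed level went from between 1060 and 1217 CPM in DMSO to 3169 CPM. Most of the rotenone sum was Col1a1 (2121 CPM) and Acta2 (852 CPM). The macrophage genes Adgre1 and Ptprc, the endothelial gene Tie1 and the muscle genes Myod1 and Myh4 were at 0 counts in every library, but Acta1, the 1 tested muscle marker of 5, went from 9, 4 and 6 counts in DMSO to 135 counts with rotenone (log2 fold change 4.87, adjusted p = 2.7e-08). Tested macrophage markers (2 of 5) summed to between 3.61 and 4.26 CPM in DMSO and 16.5 CPM with rotenone, nearly all of it Cd68. The part of any such shift in the results on import genes was not tested, and in bulk RNA fewer cells of a type and less RNA per cell cannot be told apart.

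Nearly all mitochondrial proteins are made in the cytosol and enter the organelle as unfolded precursors. The TOM complex is the common gate of the outer membrane. Precursors then move along separate routes. Small TIM chaperones carry hydrophobic proteins across the intermembrane space, a disulfide relay folds cysteine-rich proteins there, and the TIM23 complex with its HSP70 motor pulls presequence proteins into the matrix, where peptidases remove the presequence. In brown fat, which is packed with mitochondria, these routes deliver the subunits of the respiratory chain and the uncoupling protein.

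Transcripts of the import machinery were mostly higher with rotenone, by small amounts. Of the 35 genes, 30 rose and 2 fell at an adjusted p under 0.05 (edgeR's quasi-likelihood test, Benjamini-Hochberg adjustment over all genes tested), against 27.6% of all genes tested that rose and 28.5% that fell. The median log2 fold change of the 35 was 0.46, beside -0.04 for all genes tested. In the rotenone library 33 of the 35 lay above all DMSO libraries and 2 below, where 41.5% of all genes tested lay above and 44.7% below. Summed over the 35 genes, transcripts came to between 3160 and 3317 CPM in DMSO and to 4476 CPM with rotenone, a ratio of 1.37. The largest rises were those of Grpel2, Timm10, Timm13, Timm9, Mtx1 and Dnajc19, and the falls were those of Timm21 and Pmpca.

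Both the scaling and the assumed spread bear on these counts. With library size alone as the scaling, the median of all genes moved from -0.04 to -0.16, 22.1% of all genes rose and 35% fell, and 24 import genes rose and 2 fell. With a coefficient of variation of 20% assumed for every gene, in place of the DMSO spread, 6 import genes rose and 0 fell, against 9.57% of all genes that rose and 14.0% that fell. The 6 were Grpel2, Timm10, Timm13, Timm9, Mtx1 and Dnajc19, and Timm50 just missed (adjusted p = 0.053, likelihood ratio test in edgeR).

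**Figure D1:**
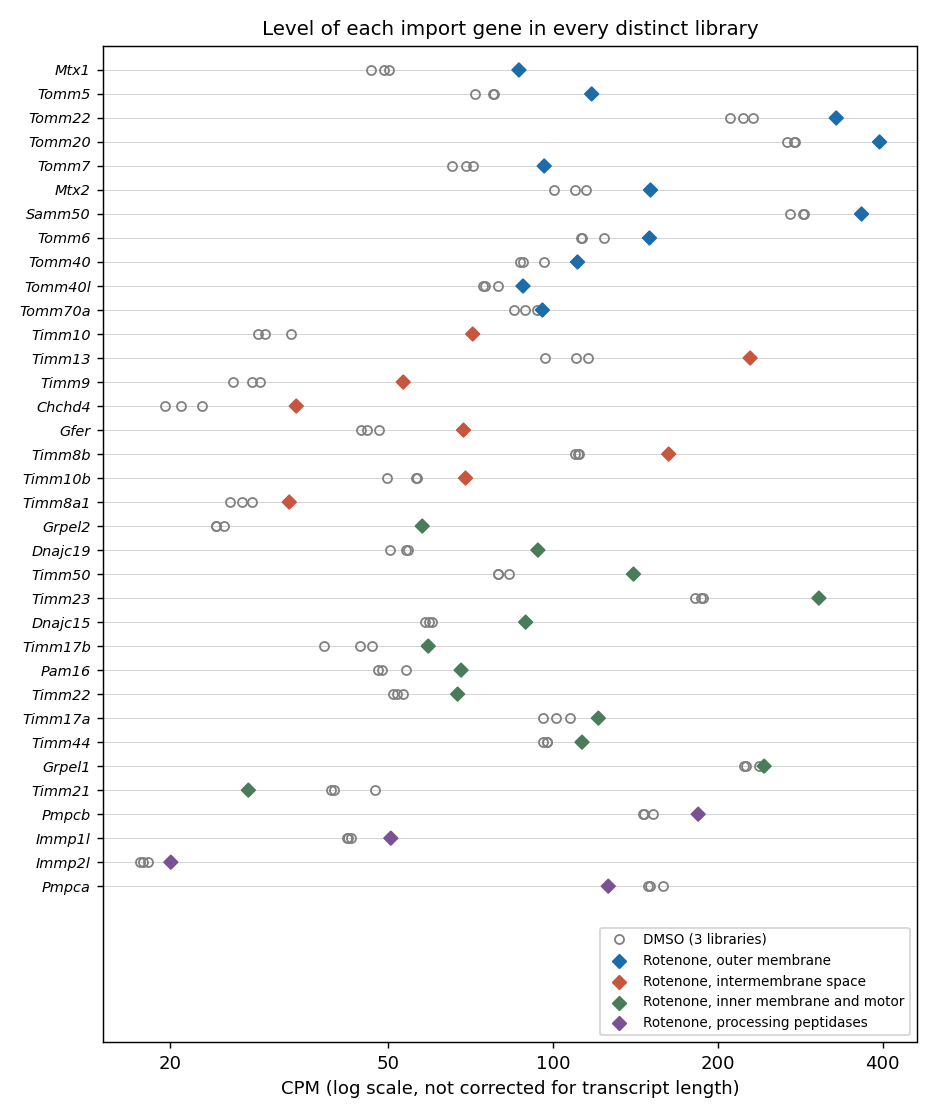
Level of each import gene (CPM, log axis) in the 3 DMSO libraries (open grey circles) and in the 1 rotenone library (diamonds coloured by compartment). In 33 of 35 genes the diamond lies to the right of all circles, and in Timm21 and Pmpca it lies to the left.

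Of 11 outer membrane genes, 10 rose and none fell by edgeR's test, where 27.6% of all genes tested rose and 28.5% fell. Tomm70a was the one that did not pass. The median log2 fold change of the 11 was 0.47. Metaxin 1, encoded by Mtx1, works with the sorting and assembly machinery that places barrel proteins in the outer membrane. Mtx1 (chromosome 3, 89209081 to 89227088, GRCm38) stood at 49.2, 50.3 and 46.7 CPM in DMSO replicates 1, 2 and 3 and at 86.8 CPM with rotenone. Its log2 fold change was 0.83 ± 0.08 (SE; adjusted p = 7.5e-08), and the rotenone value lay well clear of the DMSO values. Its partner Mtx2 measured 115, 110 and 101 CPM in DMSO and 151 CPM with rotenone (log2 fold change 0.47 ± 0.08). Samm50, the barrel-inserting core of that machinery, gave 0.38 ± 0.07.

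The small subunits around the import channel rose together. Tomm5 was at 78.1, 77.8 and 72.2 CPM in DMSO and 118 CPM with rotenone, a log2 fold change of 0.63 ± 0.07. Tomm7 and Tomm6 gave 0.49 ± 0.08 and 0.37 ± 0.08. Among the receptors that recognize precursors on the cytosolic face, Tomm22 rose by 0.57 ± 0.07 and Tomm20 by 0.53 ± 0.06. Tomm70a, the receptor for chaperone-bound carrier precursors, measured 93.4, 89.0 and 84.9 CPM in DMSO and 95.7 CPM with rotenone. The rotenone value was only just above the DMSO values, and the log2 fold change of 0.10 ± 0.08 did not pass (adjusted p = 0.27 by edgeR; -0.02 with library size scaling).

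The channel genes had smaller estimates than the small subunits before correction for transcript length and GC content. After it, Tomm40 gave 0.21 and Tomm40l 0.27, beside 0.12 for Tomm6, 0.23 for Tomm7 and 0.43 for Tomm5. The receptors Tomm22, Tomm20 and Tomm70a then gave 0.52, 0.71 and 0.28. Tomm40, which forms the pore, was at 87.2, 96.5 and 88.3 CPM in DMSO and 111 CPM with rotenone (log2 fold change 0.29 ± 0.08). That call was lost with library size scaling, where the value was 0.17. Tomm40l, a second protein of the channel family, measured 79.4, 74.6 and 75.1 CPM in DMSO and 88.2 CPM with rotenone. Its log2 fold change of 0.21 ± 0.08 passed (adjusted p = 0.027 by edgeR), but not without DMSO replicate 2 (adjusted p = 0.069) or replicate 3 (adjusted p = 0.054). Tomm40l shares 3304 exonic bases with Nr1i3 on the opposite strand, which was at 0.50 CPM in DMSO and 0.20 CPM with rotenone.

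All 8 genes of the intermembrane space rose by edgeR's test, where 27.6% of all genes tested rose and 28.5% fell. Their median log2 fold change of 0.63 was the highest of the 4 compartments. Their summed level went from between 403 and 440 CPM in DMSO to 722 CPM, a ratio of 1.70. Timm10 and Timm9 form the hexamer that escorts carrier proteins to the inner membrane. Timm10 (chromosome 2, 84826997 to 84830213, GRCm38) was at 33.3, 29.8 and 29.0 CPM in DMSO and at 71.4 CPM with rotenone, which made it 2.32-fold higher (log2 fold change 1.22 ± 0.10, adjusted p = 4.5e-09). Timm9 measured 29.2, 28.2 and 26.1 CPM in DMSO and 53.4 CPM with rotenone (0.94 ± 0.10). In both genes the rotenone value was far outside the DMSO range.

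Timm13 and the Timm8 proteins form the other small hexamer. Timm13 (chromosome 10, 80899450 to 80900969, GRCm38) was at 110, 116 and 96.8 CPM in DMSO and at 229 CPM with rotenone, a log2 fold change of 1.09 ± 0.08 (adjusted p = 2.9e-09). Timm8b rose by 0.55 ± 0.07, from 111, 110 and 111 CPM to 163 CPM. Timm8a1, whose human counterpart is mutated in deafness-dystonia syndrome, measured 27.1, 28.2 and 25.8 CPM in DMSO and 33.1 CPM with rotenone. Its log2 fold change was 0.29 ± 0.11 (adjusted p = 0.033), and the call was lost without DMSO replicate 3 (adjusted p = 0.070) and with DESeq2 (adjusted p = 0.075). Timm10b, which joins the carrier translocase at the inner membrane, rose by 0.35 ± 0.09, from 56.4, 56.4 and 49.8 CPM to 69.3 CPM. It shares 277 exonic bases with Arfip2 on the opposite strand, which gave 0.37 ± 0.08.

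Both enzymes of the disulfide relay were higher. Chchd4 (MIA40), the oxidoreductase that traps incoming cysteine-rich proteins, averaged 21.2 ± 1.7 CPM (SD, n = 3) in DMSO and measured 34.0 CPM with rotenone, a log2 fold change of 0.69 ± 0.12. Gfer, the sulfhydryl oxidase that reoxidizes it, averaged 46.3 ± 1.8 CPM (SD, n = 3) in DMSO and measured 68.7 CPM with rotenone (0.57 ± 0.09). For both genes the rotenone library lay above every DMSO library.

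**Figure D2:**
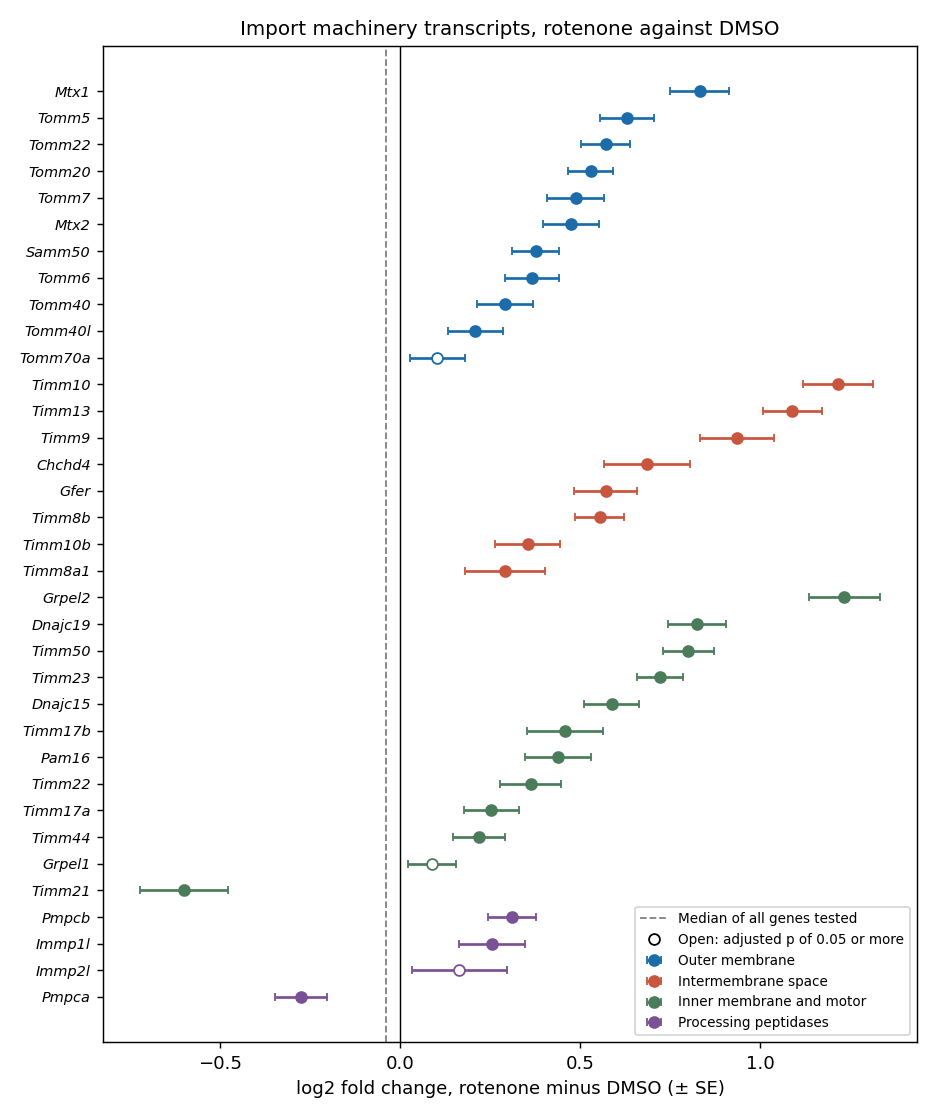
Log2 fold change of each import gene, rotenone minus DMSO, with its standard error from edgeR, grouped by compartment; open symbols mark genes at an adjusted p of 0.05 or more. The 8 intermembrane space genes lie between 0.29 and 1.22, while Timm21 (-0.60) and Pmpca (-0.28) are the points left of 0.

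Of 12 genes of the inner membrane and its import motor, 10 rose and 1 fell by edgeR's test. The shares of all genes tested were 27.6% that rose and 28.5% that fell. The 12 had a median log2 fold change of 0.45. The presequence translocase consists of the channel protein Timm23, its partner Timm17a or Timm17b, and the receptor Timm50. Timm23 averaged 185 ± 3.6 CPM (SD, n = 3) in DMSO and measured 306 CPM with rotenone, a log2 fold change of 0.72 ± 0.06. Timm50 averaged 80.6 ± 2.2 CPM (SD, n = 3) in DMSO and measured 140 CPM with rotenone (0.80 ± 0.07). Both rotenone values were clear of the DMSO values. Timm17a was at 107, 101 and 96.0 CPM in DMSO and 121 CPM with rotenone (0.25 ± 0.08). Timm17b was at 38.3, 46.8 and 44.4 CPM in DMSO and 59.3 CPM with rotenone (0.46 ± 0.11). The rise of Timm17a did not pass with library size scaling, where its log2 fold change was 0.13.

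Timm21 went the other way. It encodes the subunit that links the presequence translocase to the TOM complex and, in human cells, hands newly imported subunits to respiratory chain assembly. Timm21 (chromosome 18, 84946191 to 84951524, GRCm38) measured 47.3, 39.9 and 39.4 CPM in DMSO and 27.8 CPM with rotenone. DMSO replicate 1 was the highest of the 3, and the rotenone value was below all of them. It fell by 0.60 ± 0.12 on the log2 scale (adjusted p = 0.00033 by edgeR). Timm22, the channel for carrier proteins, rose by 0.36 ± 0.08.

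Among the motor parts, Grpel2 rose and Grpel1 did not pass. Grpel1 and Grpel2 are nucleotide exchange factors that release ADP from mitochondrial HSP70. Grpel2 (chromosome 18, 61712424 to 61726325, GRCm38) measured 25.1, 24.3 and 24.3 CPM in DMSO and 57.8 CPM with rotenone. It was 2.35-fold higher, the largest rise of the 35 genes (log2 fold change 1.23 ± 0.10, adjusted p = 3.9e-09), and 4.66% of all genes tested had a higher log2 fold change. Grpel1 was at 237, 225 and 224 CPM in DMSO and 243 CPM with rotenone, and its log2 fold change of 0.09 ± 0.07 did not pass (adjusted p = 0.28; -0.03 with library size scaling). Per kilobase of the longest annotated transcript, Grpel1 stood 10.5 to 10.8 times above Grpel2 in the DMSO libraries and 4.81 times above it with rotenone.

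The J proteins that stimulate the motor both rose. Dnajc19 was at 54.5, 54.1 and 50.4 CPM in DMSO and 94.0 CPM with rotenone (0.83 ± 0.08, adjusted p = 6.5e-08), and Dnajc15 at 60.2, 59.6 and 58.4 CPM and 89.2 CPM (0.59 ± 0.08). Pam16, which holds the J protein at the channel, rose by 0.44 ± 0.09. Timm44, the anchor of HSP70, rose by 0.22 ± 0.07 (adjusted p = 0.014), which did not pass with library size scaling (0.10). Hspa9, the mitochondrial HSP70 itself, gave a log2 fold change of 0.21 ± 0.06, with 1675 to 1753 CPM in DMSO and 1986 CPM with rotenone.

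Of 4 processing peptidase genes, 2 rose and 1 fell by edgeR's test, where 27.6% of all genes tested rose and 28.5% fell. Their median log2 fold change was 0.21. That median was 0.09 with library size scaling and turned to -0.02 after correction for transcript length and GC content. Pmpca and Pmpcb encode the alpha and beta subunits of the peptidase that cuts presequences in the matrix, a heterodimer. Pmpca (chromosome 2, 26389339 to 26397122, GRCm38) measured 159, 150 and 149 CPM in DMSO and 126 CPM with rotenone. It fell by 0.28 ± 0.07 on the log2 scale (adjusted p = 0.0033). Pmpcb measured 146, 147 and 152 CPM in DMSO and 184 CPM with rotenone, a log2 fold change of 0.31 ± 0.07 (adjusted p = 0.00066). Pmpca was thus below and Pmpcb above all DMSO libraries. Pmpca shares 874 exonic bases with Inpp5e on the opposite strand, which gave -0.10 ± 0.09 and did not pass.

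Immp1l and Immp2l form the inner membrane peptidase, which trims proteins sorted to the intermembrane space. Immp1l was at 42.3, 42.9 and 42.1 CPM in DMSO and 50.6 CPM with rotenone (0.25 ± 0.09, adjusted p = 0.025), a call lost with DESeq2 (adjusted p = 0.053) and with library size scaling (0.13). Immp2l measured 17.7, 17.9 and 18.2 CPM in DMSO and 20.1 CPM with rotenone. Its log2 fold change of 0.16 ± 0.13 did not pass (adjusted p = 0.30).

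Ratios within pairs do not depend on the scaling between libraries, but they were not corrected for transcript length and GC content. The log2 ratio of Grpel1 to Grpel2 was 3.24, 3.21 and 3.20 in the DMSO libraries and 2.07 with rotenone. For Timm10 to Timm10b it was -0.76, -0.92 and -0.78 in DMSO and 0.04 with rotenone. Pmpca to Pmpcb went from 0.12, 0.03 and -0.03 in DMSO to -0.55. In all of these pairs the rotenone ratio lay outside the DMSO range by several times its width. Mtx1 to Mtx2 shifted by 0.36, Dnajc15 to Dnajc19 by -0.24 and Timm8a1 to Timm8b by -0.26, each also outside the DMSO range. Timm17a to Timm17b shifted by -0.21, less than the SD of the DMSO libraries (0.22), though the rotenone ratio was below all 3 of them. The ratio of Tomm40 to Tomm40l stayed inside the DMSO range. The ratio of Immp1l to Immp2l shifted by 0.09, just outside that range. Among the hexamer partners, chosen after their values were seen, Timm9 to Timm10 shifted by -0.28 and Timm8a1 to Timm13 by -0.80. With 3 libraries against 1, no exact permutation test of a ratio can give a p below 0.25, so these shifts carry no test. After the length and GC correction, the log2 fold changes of Timm8a1 and Timm8b were nearly equal (0.25 and 0.26). Those of Timm9 and Timm10 (1.05 and 0.90), of Timm17a and Timm17b (0.48 and 0.35) and of Tomm40 and Tomm40l (0.21 and 0.27) changed order. Order was kept by Grpel1 and Grpel2 (0.09 and 1.19), Pmpca and Pmpcb (-0.42 and 0.37) and Timm10 and Timm10b (0.90 and 0.35). Mtx1 and Mtx2 (0.66 and 0.45), Dnajc15 and Dnajc19 (0.78 and 0.94) and Immp1l and Immp2l (0.00 and -0.04) kept it too.

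**Figure D3:**
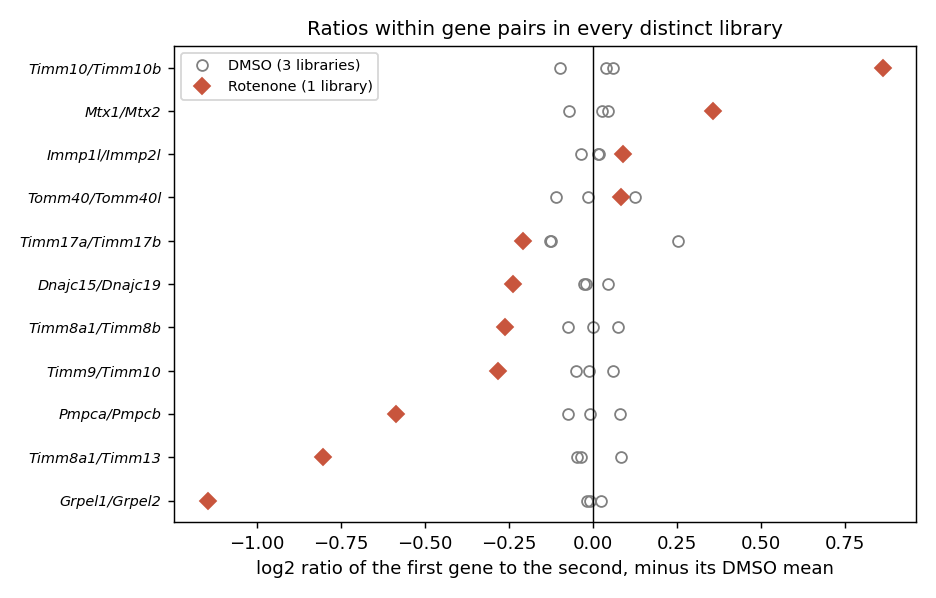
Log2 ratio of the first to the second gene of each pair, minus its mean over the DMSO libraries, in the 3 DMSO libraries (open circles) and the rotenone library (diamonds). Grpel1/Grpel2 (-1.15), Timm8a1/Timm13 (-0.80) and Timm10/Timm10b (0.86) lie farthest from 0, and Tomm40/Tomm40l lies among its circles. The ratios are not corrected for transcript length and GC content.

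Levels of different genes can be compared only per transcript length. Per kilobase of the longest annotated transcript, the DMSO mean was highest for Timm8b (214 CPM per kilobase), Timm23 (158) and Tomm22 (141), and lowest for Chchd4 and Grpel2 (6.09 each). With rotenone Timm8b and Timm23 stood at 314 and 261 CPM per kilobase and Timm13 at 187, up from 87.9. The receptor transcripts differed widely from one another, with Tomm22 at 141, Tomm20 at 55.8 and Tomm70a at 14.9 CPM per kilobase in DMSO. These levels rest on annotated and not on measured transcript ends.

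Log2 fold changes varied with transcript length. Over all genes with an annotated length, the median log2 fold change was 0.26 in the shortest length decile and -0.26 in the longest, while the same decile medians deviated by at most 0.028 in any DMSO library. The longest transcript had a median of 2503 nt over the 35 import genes and of 3214 nt over all genes tested, though some of the 35 are longer than that, Grpel2 at 4038 nt among them. Of the 35 genes, 31 lay above the median of their own length decile. The other 4 were Timm21, Pmpca, Immp1l and Immp2l. After correction for transcript length and GC content the median of the 35 was 0.37, beside -0.04 for all genes. Grpel2 (1.19), Timm9 (1.05), Dnajc19 (0.94) and Timm10 (0.90) then had the highest values, Timm8b went from 0.55 to 0.26, and Immp1l came to 0.00. Pmpca and Timm21 remained below 0, at -0.42 and -0.49, and Immp2l, which had not passed, went from 0.16 to -0.04.

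**Figure D4:**
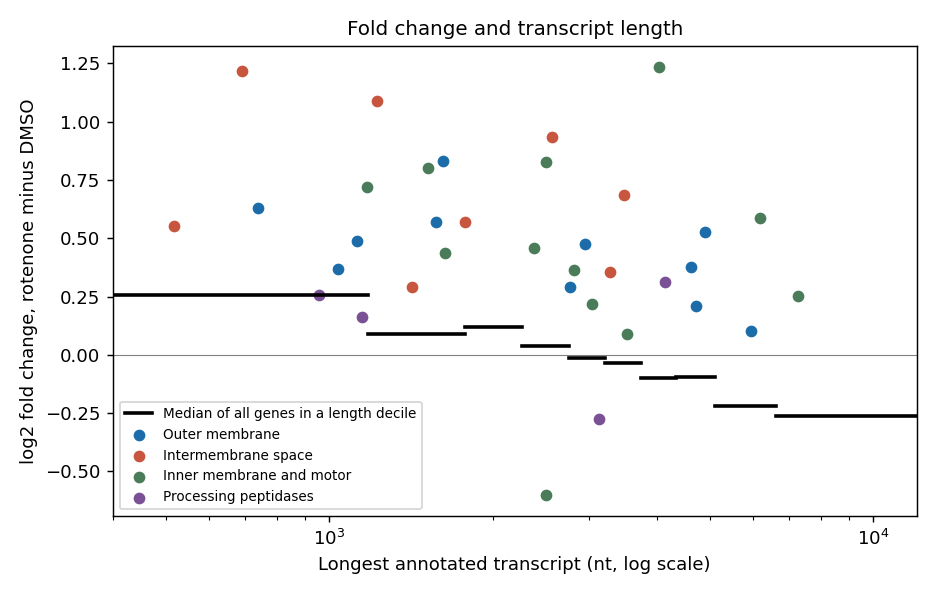
Log2 fold change of the import genes (points, coloured by compartment) against the length of the longest annotated transcript (log axis), with the median of all genes in each length decile as black bars (the outermost bars are cut at the axis ends). The bars run from 0.26 in the shortest decile to -0.26 in the longest, though not downward at every step (0.09 in decile 2, 0.12 in decile 3). Of 35 points, 31 lie above the bar of their decile.

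Genes that work beside the 35 were counted in 5 lists. The shares of all genes tested to hold beside each count are 27.6% that rose and 28.5% that fell. Of 10 tested genes of translocation and membrane insertion, 4 rose and none fell by edgeR's test, with a median log2 fold change of 0.17. With library size scaling 3 rose and 1 fell, the call of Hspa9 was lost, and the median was 0.05. Cox18, an insertase for a mitochondrially encoded subunit of cytochrome oxidase, rose by 1.19 ± 0.14, from 12.8, 14.1 and 12.1 CPM to 29.6 CPM. Mtch2, an insertase of the outer membrane, rose by 0.65 ± 0.06, and Romo1, a small protein tied to the presequence translocase, by 0.64 ± 0.08. Timm29, a subunit of the carrier translocase, stood at 52.9, 53.5 and 52.9 CPM in DMSO and 53.0 CPM with rotenone, and was chosen after its values were seen.

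Of 10 further mitochondrial peptidases and proteases, 4 rose and 3 fell by edgeR's test, where 27.6% of all genes tested rose and 28.5% fell. Their median of 0.03 turned to -0.09 with library size scaling and -0.01 with upper quartile scaling. Pitrm1, which degrades cleaved presequences, averaged 60.2 ± 1.4 CPM (SD, n = 3) in DMSO and reached 113 CPM (0.91 ± 0.07), and Htra2, a protease of the intermembrane space, rose by 0.84 ± 0.08. Xpnpep3, whose yeast relative trims the end left after presequence removal, fell by 0.81 ± 0.10, and Spg7, a subunit of an inner membrane protease, rose by 0.50 ± 0.10. The remaining called genes, chosen after their values were seen, were Yme1l1 (-0.41), Lonp1 (-0.29) and Clpp (0.49).

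Of 7 subunits of MICOS, the complex that shapes cristae and contacts the import gates, 4 rose and 1 fell by edgeR's test, with a median of 0.48. Apoo rose by 0.96 ± 0.08, Chchd3 by 0.76 ± 0.07, Micos10 by 0.55 ± 0.07 and Immt by 0.48 ± 0.07, and the fall, named because the count was small, was that of Apool (-0.36 ± 0.12), a call lost with DESeq2. Of 11 proteins that the disulfide relay oxidizes or that work with it, 7 rose and 1 fell by edgeR's test, with a median of 0.43 (0.27 after the length and GC correction). Chchd10 rose by 0.87 ± 0.07, the copper chaperone Cox17 by 0.62 ± 0.07 and the mitochondrial ribosomal protein Chchd1 by 0.55 ± 0.08. Cox6b1, a subunit of cytochrome oxidase, was the 1 that fell (-0.20 ± 0.06), named because the count was small.

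Of 11 genes for delivery and surveillance of precursors in the cytosol, 6 rose and 3 fell by edgeR's test, with a median of 0.40. Hspa8, the constitutive cytosolic HSP70, rose by 1.03 ± 0.06, from 798, 795 and 778 CPM to 1608 CPM. Pink1, the kinase that accumulates on mitochondria when import fails, averaged 97.1 ± 4.8 CPM (SD, n = 3) in DMSO and measured 52.3 CPM with rotenone (-0.89 ± 0.09). Tomm34, a cytosolic co-chaperone of precursors, fell by 0.69 ± 0.16, and Dnaja1, a cytosolic J protein named because the count was small, by 0.40. With the coefficient of variation of 20%, these 5 lists together kept 1, 2, 1, 1 and 1 of their rises in the order given, and none of their falls.

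Because most of the 35 genes rose, their promoters were searched for short motifs of factors known to serve mitochondrial genes. RefSeq windows from 250 bases before to 50 bases after the annotated start (GRCm38.p6) were found for 31 of the 35 genes. None was found for Grpel2, which had the largest rise, for Timm21, which fell, or for Tomm7 and Tomm40l. On both strands, 5 motifs were looked for: the ETS core CCGGAAG, the E-box CACGTG, the YY1 core AAGATGGC, the NRF1 core GCGCATGC and the core TGATGCAA of the C/EBP-ATF element of the integrated stress response. The ETS core was held by the windows of 11 of the 31 genes (35.5%), against 8.86% of all 32851 windows and 16.4% of windows of tested genes. Of the 27 matched genes that rose, 8 held it: Timm10, Timm10b, Timm23, Tomm22, Timm8b, Mtx1, Mtx2 and Pmpcb. Among windows of all genes that rose, the share was 19.3%. The core was also held by Pmpca, which fell, and by Grpel1 and Tomm70a, which did not pass, but not by Immp2l. The E-box was in 4 of 31 (12.9%), Timm8a1, Timm9, Timm10 and Tomm20, against 7.15% of all windows, 9.68% of tested genes and 12.0% of genes that rose. The YY1 core was in 3 (9.68%), against 2.75%, 4.08% and 5.0% in the same order. The NRF1 core was in 2 (6.45%), against 2.71%, 4.81% and 6.03%. The C/EBP-ATF core was in 0, against 0.895%, 0.631% and 0.858%. The shares of the 31 count genes, including those that fell or did not pass, while the other shares count windows. A match describes letters in a window and does not show that a factor binds there.

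The last 60 bases before the RefSeq start are shown for the genes that rose and hold an ETS core there, with at most 24 bases of annotated exon in the stretch, and for Timm9 with the first of its E-boxes; capitals mark the motif, and the sequences run 5′ to 3′ on the strand of the gene (RefSeq, GRCm38.p6). In Tomm22 the core is present on both strands and overlaps itself.
Timm10, chr2:84826961-84827020, plus strand: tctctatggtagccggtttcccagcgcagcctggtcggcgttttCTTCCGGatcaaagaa
Timm23, chr14:32201892-32201951, minus strand: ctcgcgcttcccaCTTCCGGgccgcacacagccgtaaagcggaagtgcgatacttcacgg
Tomm22, chr15:79670808-79670867, plus strand: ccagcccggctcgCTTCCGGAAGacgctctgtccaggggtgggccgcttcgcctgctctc
Timm8b, chr9:50603841-50603900, plus strand: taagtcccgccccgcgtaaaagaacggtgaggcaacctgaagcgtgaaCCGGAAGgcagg
Mtx2, chr2:74825752-74825811, plus strand: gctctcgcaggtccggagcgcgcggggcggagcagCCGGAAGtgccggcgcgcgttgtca
Pmpcb, chr5:21737100-21737159, plus strand: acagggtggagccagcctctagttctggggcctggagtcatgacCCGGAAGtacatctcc
Timm9, chr12:71136676-71136735, minus strand: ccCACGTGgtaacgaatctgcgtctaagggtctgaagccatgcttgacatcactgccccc
Counted from the start, the first base of the ETS core in the stretch shown lies at -12 in Timm8b, -16 in Timm10 and Pmpcb, -25 in Mtx2, -47 in Timm23 and -47 and -44 in Tomm22. Further ETS cores of these windows lie after the start, at 14 and 17 in Timm10, 7 in Mtx2, 11 in Timm23 and 6 in Tomm22. The E-boxes of Timm9 lie at -58 and at -1, the latter running past the stretch shown.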

How the data were processed

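Trizol RNA and a NEBNext Ultra kit were used for the libraries, per the labels' protocols. The deposited files hold raw counts of reads per gene symbol; per the submitters' processing notes TopHat2 and mm10 were used. The counter, its annotation and strand use remain not given in the sources used here, so reads of overlapping genes on opposite strands, which 14 of the 35 members have, may be mixed. Beside the overlaps named above, Dnajc19 shares 178 exonic bases with Fxr1 (log2 fold change 0.08). Grpel1 shares 411 with Tada2b (-0.46) and Tomm6 shares 93 with Usp49 (-1.43). The part of such reads in the values of the members was not tested. Files with identical counts entered once. The labels number the replicates without saying that they were separate cultures, so p-values measure only how far these libraries differ, and that spread may be technical.

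Counts were scaled by TMM and filtered with filterByExpr in edgeR 4.0.16 (R 4.3.3), and tested with its robust quasi-likelihood F test (2 residual degrees of freedom, Benjamini-Hochberg over 14709 genes, threshold 0.05). That test draws the spread of each gene in part from all genes, so a small p does not rest on the gene's own libraries alone. An exact permutation test of 1 gene, with 3 libraries against 1, could not give a p below 0.25. The SE is the log2 fold change divided by the square root of F. Length and GC were corrected by subtracting the median of 8 by 8 bins and adding back the median of all genes (longest GENCODE M21 transcript, GRCm38; all 35 members matched). The tests were checked on simulated counts. DESeq2 1.42.0 was an alternative. The members and gene lists were chosen with earlier results of these data known. Named in full were the 6 highest and 6 lowest members, the 2 largest changes of each compartment, 9 fixed pairs and up to 4 called genes of each further list. Some genes that this rule names are not reported here.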

Additional observations from a re-analysis of the deposited data

How the results depend on the processing

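No paired analysis was possible because the 3 rotenone files are 1 library, which leaves no pairs of replicate numbers. With a coefficient of variation of 20% assumed, 3471 of all genes were called instead of 8251, and 6 members rose and 0 fell instead of 30 and 2. The median of the members, 0.46, was 0.41 with upper quartile scaling, 0.34 with library size only and 0.37 after the length and GC correction. With library size only, Tomm70a (-0.017) and Grpel1 (-0.032), neither past the threshold, changed sign, and 6 member calls were lost. Immp2l, also not past the threshold, turned to -0.04 after the length and GC correction. DESeq2 and upper quartile scaling each lost 3 calls, of Tomm40l, Timm8a1 and Immp1l, and an adjusted p of 0.01 lost 4. Median-ratio scaling, other filters, leaving out Rn45s and leaving out DMSO replicate 1 changed no member's call; leaving out each DMSO replicate in turn gave 28 to 30 rises and medians of 0.42 to 0.49, losing Tomm40l without replicate 2 and Tomm40l and Timm8a1 without replicate 3. The rotenone group has no replicate spread of its own, and no setting supplies one.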
